A study of Mus musculus with 15 samples.

Results

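The interferon-inducible GTPases described here are 10 genes of the IRG (immunity-related GTPase) and GBP (guanylate-binding protein) families, measured in the heart of mice with chronic kidney disease (CKD) and of sham-operated mice. The 10 genes are Igtp, Irgm1, Irgm2, Iigp1, F830016B08Rik, Gbp2, Gbp3, Gbp6, Gbp7 and Gbp10. They were taken by name from a count table of 17447 genes, and all 10 passed the filter on low counts that left 13021 genes to test. They were selected on their levels in these same libraries. Their values are therefore given as a description, without p-values, and a count of how many of them passed a threshold is no support for a direction.

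The hearts of 15 male C57BL/6J mice were collected 18 weeks after surgery for RNA sequencing, with 5 groups of 3 mice. WTSHAM were wild-type mice with a sham operation and no kidney excision. WTCKD were wild-type mice with a subtotal nephrectomy and an injection of vector, and WTCKD + RNLS received AAV9-cTnT-RNLS in its place. KOCKD and KOCKD + RNLS were rnls-/- mice with the same nephrectomy, given vector or AAV9-cTnT-RNLS respectively. AAV9-cTnT-RNLS is a virus that carries the gene of renalase (RNLS), a flavoprotein found in kidney, heart and blood, behind the troponin T promoter of cardiomyocytes. The knockout had been made with a TALEN nuclease, and its gene, Rnls, was not analysed here, so the genotype rests on the labels. All 4 CKD groups had been injected with a virus or vector, and no sham injection was stated for WTSHAM, so surgery and injection cannot be told apart in WTCKD against WTSHAM. No rnls-/- sham hearts were analysed here. The study's methods give the mice an age of a few weeks, without an age per group. As the hearts were collected 18 weeks after surgery, the mice were older than this at collection. No label ties a mouse to a litter or a processing day. The submitted library names begin with WM for WTSHAM 1 and with WT for the rest of WTSHAM. They begin with WM for WTCKD + RNLS 3 and with RM for the rest of that group. All KOCKD + RNLS names begin with WM, all WTCKD names with wm and all KOCKD names with s. What these letters stand for is not stated, and their part in differences between libraries of a group was not tested. Each library was taken as 1 heart, and the spread between libraries is the only error that can be given.

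IRG and GBP proteins are GTPases that cells make in quantity once interferon has bound its receptors. Interferon gamma acts through the receptor chains Ifngr1 and Ifngr2 and the kinases Jak1 and Jak2, which leads to transcription from GAS sites and to the induction of Irf1. Type I interferons act through a complex with Stat2 and Irf9, which binds the interferon-stimulated response element (ISRE). The induced GTPases coat the membranes around intracellular bacteria and parasites, and several of them also sit on the endomembranes of the host cell. In the heart these genes are read by many cell types, among them endothelial cells, macrophages and cardiomyocytes.

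Total counts per library ran from 10480788 to 13424078 (median 12011453). In WTSHAM they were between 12222947 and 13107066. All 8 cardiomyocyte markers were detected in every library, with a summed level of 86322 to 116740 CPM, and lung markers summed to at most 0.667 CPM. CPM here are read counts scaled to a common library size with TMM factors. No pair of replicates was a duplicate, since counts within each group differed by 4.59 to 21.5 times the variance that sampling alone gives. Over all tested genes, the log2 CPM of WTSHAM 1 correlated with WTSHAM 2 and WTSHAM 3 at r = 0.974 and 0.972. WTSHAM 2 and WTSHAM 3 correlated with each other at 0.986, and WTCKD 2 with WTCKD 3 at 0.974. Markers of atrial tissue and of red blood cells varied between libraries of 1 group and are given further on.

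The 3 WTSHAM hearts did not hold the 10 genes at 1 level. Relative to the median of the 12 CKD libraries, the median ratio over the 10 genes was 2.18 in WTSHAM 1, 9.29 in WTSHAM 2 and 5.09 in WTSHAM 3, where the medians over all tested genes were 1.003 in each. WTSHAM 2 was above WTSHAM 3 in 10 of the 10 genes, and in 50.9% of all genes. Both WTSHAM 2 and WTSHAM 3 were more than 2-fold above each of the other 13 libraries for 5 of the 10 genes, namely Igtp, Irgm2, Iigp1, F830016B08Rik and Gbp6. Only 6 of the 13021 genes (0.0461%) showed this. All 3 sham hearts lay above all 12 CKD hearts for 8 of the 10 genes, against 2.7% of all genes. The 2 exceptions were F830016B08Rik and Gbp10, in which WTSHAM 1 lay below WTCKD + RNLS 3. For F830016B08Rik, WTSHAM 1 also lay below KOCKD + RNLS 1.

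**Figure D1:**
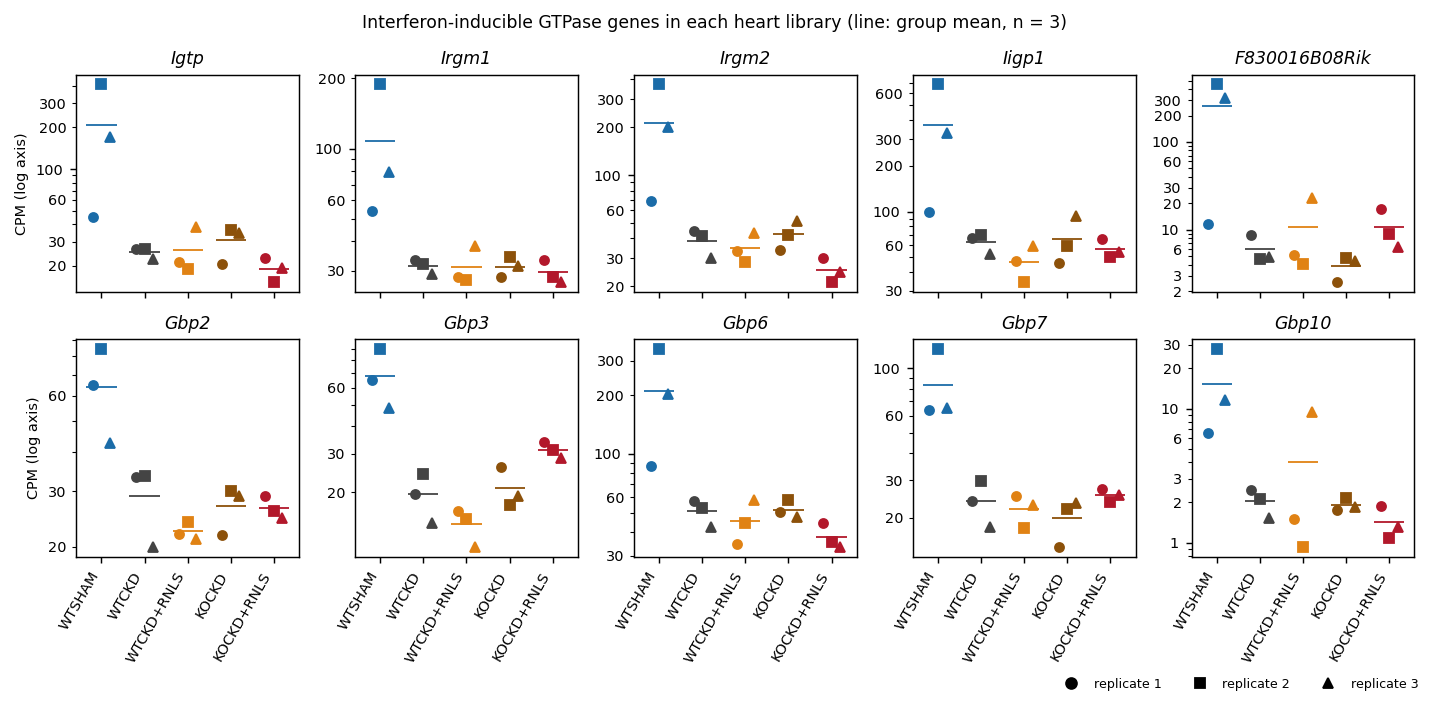
CPM of each of the 10 genes (vertical log axis, its range set per panel) in the 15 heart libraries, by group. Each symbol is 1 library, its shape the replicate number, and lines are group means (n = 3). In each panel the square of WTSHAM 2 is the highest point.

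Irgm1, Irgm2 and Igtp (also called Irgm3) are regulatory IRG proteins, which stay on the cell's own membranes and hold the effector GTPases in their inactive form there. Irgm1 was at 54.3, 189 and 79.5 CPM in WTSHAM 1, 2 and 3, and at 33.2, 32.1 and 29.1 CPM in the 3 WTCKD libraries. WTSHAM and WTCKD did not overlap, and the 12 CKD libraries lay between 26.8 and 38.2 CPM. The log2 fold change of Irgm1 in WTCKD against WTSHAM was -1.77 (SE 0.31). Irgm2 had 68.6, 372 and 200.5 CPM in WTSHAM and 44.8, 41.1 and 30.3 CPM in WTCKD, a log2 fold change of -2.47 (SE 0.40). Its lowest sham value stood above the highest of the 12 CKD values, 51.2 CPM. Igtp had 44.9, 409 and 170.4 CPM in WTSHAM and 26.6, 26.4 and 22.5 CPM in WTCKD, a log2 fold change of -3.05 (SE 0.53). WTSHAM 1 was within 2-fold of the CKD median for Igtp (ratio 1.98), whereas WTSHAM 2 was 18.1 times and WTSHAM 3 was 7.52 times that median.

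Iigp1 (Irga6) is an effector IRG protein that assembles on the vacuoles of intracellular parasites. It was measured at 99.5, 688 and 328 CPM in WTSHAM and at 66.6, 69.7 and 52.7 CPM in WTCKD. The log2 fold change was -2.56 (SE 0.46). WTSHAM 1 was separated from the highest CKD library, KOCKD 3 at 93.1 CPM, by less than the spread among the KOCKD libraries (46.1 to 93.1 CPM).

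F830016B08Rik, a gene of the same family with little known function, differed most between sham hearts. It was at 11.6, 453 and 313 CPM in WTSHAM and at 8.62, 4.59 and 4.85 CPM in WTCKD. WTSHAM 2 and WTSHAM 3 were 39.1 and 27.0 times WTSHAM 1, while WTSHAM 1 itself was 2.31 times the CKD median. The log2 fold change of -5.42 (SE 0.95) in WTCKD against WTSHAM thus came from the libraries WTSHAM 2 and WTSHAM 3, and it was -0.94 (SE 0.73) without them. Among the CKD libraries the gene ranged from 2.54 to 23.05 CPM, in proportion a wider range than in the other IRG genes.

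The GBP proteins are larger GTPases that bind the membranes of pathogens and help to open them. Gbp2, Gbp3 and Gbp7 lie near each other on chromosome 3. Gbp2 was at 64.9, 84.2 and 42.6 CPM in WTSHAM and at 33.2, 33.6 and 19.99 CPM in WTCKD, a log2 fold change of -1.14 (SE 0.21). Gbp3 was at 64.7, 89.5 and 48.3 CPM in WTSHAM and at 19.7, 24.3 and 14.5 CPM in WTCKD, a log2 fold change of -1.79 (SE 0.22). In Gbp2 and Gbp3 the lowest sham heart was WTSHAM 3, not WTSHAM 1. Gbp7 was at 64.1, 122.6 and 65.0 CPM in WTSHAM and at 23.9, 29.8 and 18.2 CPM in WTCKD, a log2 fold change of -1.81 (SE 0.24). WTSHAM 1 and WTSHAM 3 had nearly the same Gbp7 level, with a ratio of 1.01.

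Gbp6 and Gbp10 lie on chromosome 5 and resemble each other closely. Gbp6 had 86.9, 344 and 202 CPM in WTSHAM and 57.5, 52.7 and 42.3 CPM in WTCKD, a log2 fold change of -2.05 (SE 0.33). Gbp10 was the lowest of the 10 genes, at 6.59, 27.7 and 11.6 CPM in WTSHAM and 2.45, 2.11 and 1.53 CPM in WTCKD, a log2 fold change of -2.91 (SE 0.65). It was called lower in only 2 of the 6 fits that each left out 1 library of these groups, and was -2.16 without WTSHAM 2. Both had their order of sham hearts in common with the IRG genes, with WTSHAM 1 lowest and WTSHAM 2 highest.

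Across WTCKD against WTSHAM, 10 of the 10 genes had a lower level in WTCKD at an adjusted p under 0.05 (edgeR quasi-likelihood test). Of all tested genes, 1.70% were called lower and 2.30% in either direction. The groups did not overlap in any of the 10 genes, which held for 12.2% of all genes in this direction and 22.5% in either. The median log2 fold change of the 10 genes was -2.26, with -0.01 over all genes. Because these values chose the genes, nothing further is read from these counts. Without WTSHAM 2 and WTSHAM 3 together, a setting chosen after seeing the data in which WTSHAM 1 is assumed to vary like the other groups, the median was -0.88 and 4 of the 10 were called (Irgm1, Gbp2, Gbp3 and Gbp7), with 2% of all genes. In a fit of only the 6 libraries of this comparison the median was -2.26 and 2 of the 10 were called (Gbp3 and Gbp7), with 0.777% of all genes.

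**Figure D2:**
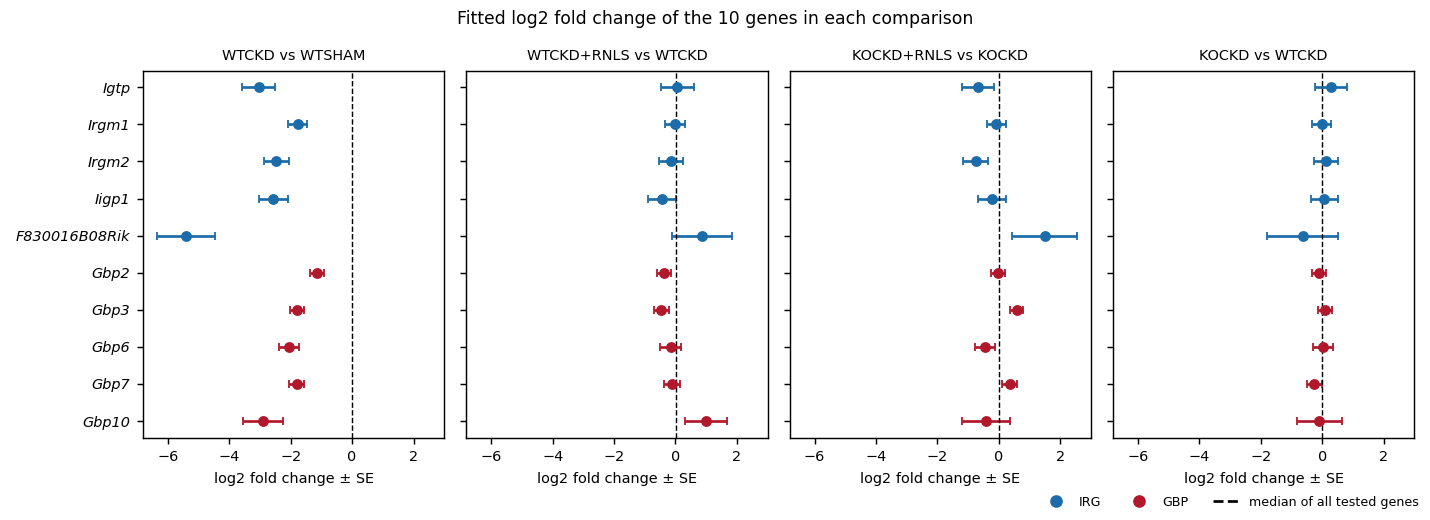
Fitted log2 fold change (point) and its standard error (bar) of the 10 genes in 4 comparisons of 3 against 3 libraries. The dashed line is the median of all 13021 tested genes. In WTCKD against WTSHAM all points lie between -5.42 and -1.14, and in the other 3 comparisons between -0.75 and 1.497.

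The promoters were examined because all 10 genes were lower in WTCKD than in WTSHAM and highest in WTSHAM 2, although WTSHAM 1 and WTSHAM 3 differed in order between them. RefSeq windows on GRCm38.p6, each from 250 bases before to 50 bases after a start site, were at hand for 6 of the 10 genes: Igtp, Irgm1, Irgm2, Gbp2, Gbp3 and Gbp7. Iigp1, F830016B08Rik, Gbp6 and Gbp10 had no entry. The ISRE core, searched as GAAA repeated after a gap of 2 bases of any kind, on both strands and with overlaps allowed, was found in 6 of the 6 genes and in 3.99% of all 27025 genes with at least 1 window (3.44% of 32851 windows). The stretches around it are shown on the strand of each gene, 5′ to 3′, with the ISRE core in capitals. A core on the opposite strand reads as its reverse complement, as in Gbp2, Gbp3 and Gbp7.
Igtp, chr11:58199502-58199551 (+): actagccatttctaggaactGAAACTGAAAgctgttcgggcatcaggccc
Irgm2, chr11:58214893-58214942 (+): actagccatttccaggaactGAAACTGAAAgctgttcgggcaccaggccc
Irgm1, chr11:48871421-48871470 (-): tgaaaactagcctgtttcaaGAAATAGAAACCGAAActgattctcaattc
Gbp2, chr3:142620584-142620633 (+): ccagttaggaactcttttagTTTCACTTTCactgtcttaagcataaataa
Gbp3, chr3:142559979-142560034 (+): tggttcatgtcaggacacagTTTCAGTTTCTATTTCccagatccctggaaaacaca
Gbp7, chr3:142530263-142530312 (+): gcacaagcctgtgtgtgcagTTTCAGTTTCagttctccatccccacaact
The cores began between 24 and 64 bases before the start site. Irgm1 and Gbp3 each held 2 overlapping cores. The Igtp and Irgm2 stretches were identical in 48 of 50 bases. These genes lie near each other on chromosome 11, and their whole windows were 68.1% identical. A GAS match, TTCNNNGAA, was found in 3 of the 6 genes and in 9.55% of all genes (8.3% of windows), once each in Igtp and Irgm2, where it ended shortly before the ISRE core, and at 2 places in Gbp7, without overlap with an ISRE core. Of the 10 other family genes with a window, 6 held the ISRE core and 4 a GAS match. A match says only that these letters are present.

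In the GENCODE vM1 annotation of NCBIM37 (mm9), Gbp7 spans chr3:142193302-142213047, Gbp3 chr3:142223016-142236173 and Gbp2 chr3:142283566-142300972. Gbp10 spans chr5:105643926-105668552 and Gbp6 chr5:105699723-105722718. Igtp spans chr11:58013058-58021093, Irgm2 chr11:58028530-58036282 and Irgm1 chr11:48675470-48685185. The counts carry no coordinates, and these positions only show which genes lie near each other.

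Reads of close copies can be split or lost in counting. Of all 100-base windows of the longest vM1 transcript, 65.9% of those of Gbp6 and 66.2% of those of Gbp10 were also found in transcripts of other genes, all of them GBP genes. The other genes were Gbp4, Gbp8, Gbp9, Gbp10 and Gbp11 for Gbp6, and Gbp6 and Gbp8 for Gbp10. The levels of Gbp6 and Gbp10 are therefore uncertain as single genes. The share was 3.38% for Igtp and 1.93% for Irgm2, each with the other, 0.929% for Gbp3 and 0.44% for Gbp7, again with each other, and 0.125% for F830016B08Rik. It was 0 for Irgm1, Iigp1 and Gbp2.

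Levels of different genes can be compared only per length, for which the deposited FPKM were used. In WTSHAM, Iigp1 (112 ± 90.9 FPKM, SD, n = 3) and Igtp (107 ± 96.8) led, followed by Irgm2 (63.2 ± 46.2) and F830016B08Rik (61.1 ± 53.5). Gbp6 (47.0 ± 29.7 FPKM), Irgm1 (40.7 ± 28.0) and Gbp2 (26.7 ± 9.03) came next, then Gbp3 (22.0 ± 7.16), Gbp7 (15.4 ± 6.54) and Gbp10 (4.49 ± 3.35). Each of these genes differed from the next in the order by less than the larger SD of the pair, apart from Gbp7 and Gbp10. In WTCKD, Iigp1 (18.4 ± 3.12 FPKM) was again first, ahead of Igtp (12.6 ± 1.46) by more than either SD. Igtp, Gbp2 (11.96 ± 3.45 FPKM), Irgm1 (11.6 ± 1.04), Irgm2 (11.2 ± 2.38) and Gbp6 (11.1 ± 1.89) were not separated. Gbp3 (6.30 ± 1.75 FPKM), Gbp7 (4.32 ± 1.16), F830016B08Rik (1.37 ± 0.514) and Gbp10 (0.583 ± 0.142) followed, each apart from the one before by more than either SD. F830016B08Rik was thus 4th in the WTSHAM order and 9th in each of the CKD groups, and its WTSHAM mean rests on WTSHAM 2 and WTSHAM 3.

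**Figure D3:**
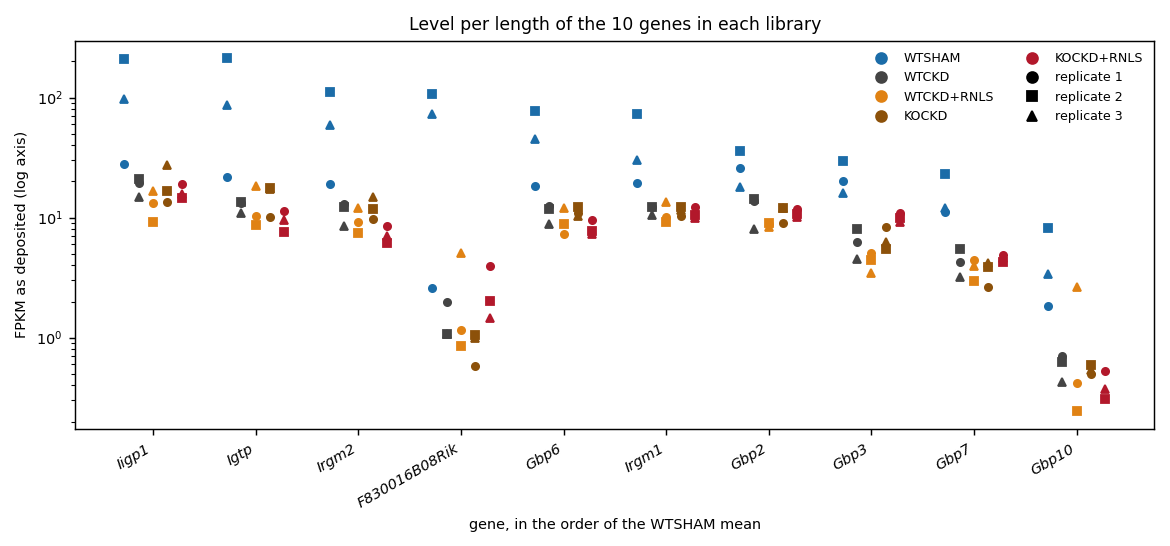
Deposited FPKM (log axis) of the 10 genes in the 15 libraries, with the genes ordered by their WTSHAM mean. Color marks the group and symbol shape the replicate number. The WTSHAM circle (replicate 1) of F830016B08Rik lies with the CKD libraries, far below the square and the triangle.

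The lists of other genes, here and below, were chosen with earlier results of these data known, so their counts are a description. Other genes of the 2 families were read from a list of 24, of which 16 were in the table and 12 passed the filter. Of these 12, 10 were lower in WTCKD than in WTSHAM at an adjusted p under 0.05 and 0 were higher (edgeR), with 1.70% of all genes called lower. Tgtp1, an effector IRG gene with a near-identical copy in Tgtp2, had a log2 fold change of -2.18 (SE 0.34, adjusted p = 0.0027). Gbp5, which promotes inflammasome assembly, was at -1.70 (SE 0.27, adjusted p = 0.0027). Gbp9 fell by 1.29 (SE 0.21, adjusted p = 0.0036) and Ifi47, the IRG gene also called Irgd, by 1.76 (SE 0.30, adjusted p = 0.0044), both on the log2 scale. The 2 that did not pass were 9930111J21Rik1 (-1.20, adjusted p = 0.138) and Irgq (-0.26, adjusted p = 0.169). The sham hearts were less unequal in these 12 genes, with median ratios to the CKD libraries of 2.71, 5.95 and 2.74 in WTSHAM 1, 2 and 3. In the fit of 6 libraries, 1 of the 12 was called, with 0.777% of all genes.

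**Figure D4:**
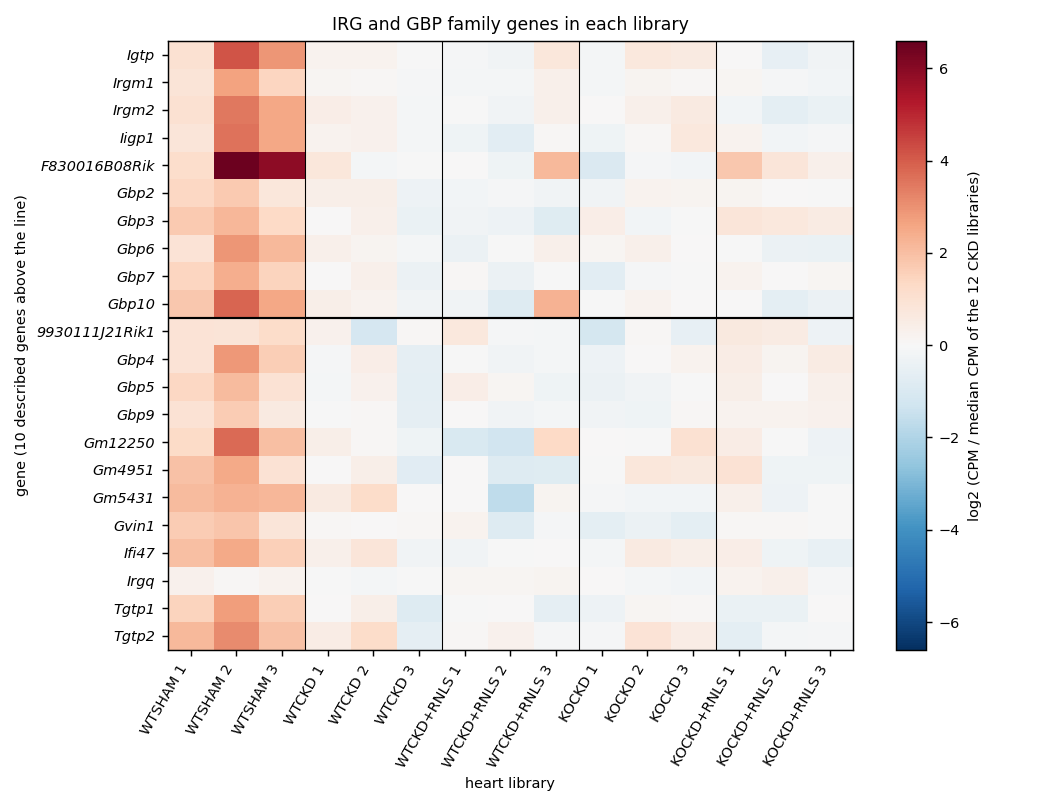
log2 ratio of the CPM in each library (columns) to the median of the 12 CKD libraries, for the 10 genes above the line and 12 other family genes below it. Red is higher and blue lower. The columns of WTSHAM 2 and WTSHAM 3 are darkest in the row of F830016B08Rik, and the row of Irgq is pale throughout.

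Of the ligands, Ifng, the gene of interferon gamma, was counted 4, 0 and 1 times in WTSHAM 1, 2 and 3 and at most 1 time in any CKD library. It did not pass the filter, and no difference was detectable at this depth. Only 1 of 6 ligands and inducing cytokines in the table passed it, Il15, a cytokine that sustains NK cells, with a log2 fold change of -0.15 (SE 0.22) in WTCKD against WTSHAM. The receptor genes Ifngr1 (56.8 to 66.4 CPM in WTSHAM, 65.8 to 68.8 CPM in WTCKD) and Ifngr2 (187 to 200.3 and 204 to 209.7 CPM) were not called.

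With 1.70% of all genes called lower in WTCKD, 4 of 18 receptor and signalling genes were lower and 0 higher. Among these were Stat2 (log2 fold change -1.88, SE 0.21, adjusted p = 0.000229), Irf9 (-1.66, SE 0.20, adjusted p = 0.000432) and Irf1 (-1.24, SE 0.26, adjusted p = 0.0201), all transcription factors of the interferon response. Irf1 was at 34.8, 92.3 and 41.8 CPM in WTSHAM and at 22.7 to 24.9 CPM in WTCKD. The 4 genes were also counted among the targets below, since they are induced by interferon themselves.

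Targets of interferon gamma and of type I interferon were then compared. With 1.70% of all genes called lower, 9 of 32 interferon gamma targets were lower in WTCKD and 0 higher. They included H2-T23, a non-classical class I molecule (log2 fold change -1.10, SE 0.17, adjusted p = 0.0022), Cd274, which encodes PD-L1 (-1.74, SE 0.31, adjusted p = 0.0053), and Tap1, a subunit of the peptide transporter of antigen presentation (-1.56, SE 0.33, adjusted p = 0.0193). Of 38 type I interferon targets, 35 were lower and 0 higher, again beside 1.70% of all genes called lower. Irf7, the factor that amplifies type I interferon, was lower by the largest step among those named (-2.90, SE 0.26, adjusted p = 9.4e-05), followed by Bst2, which tethers budding virus (-1.80, SE 0.19, adjusted p = 0.000205), Parp14, an ADP-ribosyltransferase (-1.43, SE 0.14, adjusted p = 0.000142), and Eif2ak2, the kinase PKR (-1.36, SE 0.15, adjusted p = 0.000205). Those that did not pass were Ifi204 (-1.05, adjusted p = 0.0591), Ifi27 (-1.16, adjusted p = 0.0813) and Dtx3l (0.49, adjusted p = 0.538). The adjusted p-values are from edgeR over all 13021 genes.

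The sham hearts held these lists differently. The median ratio to the CKD libraries was 2.97, 4.11 and 2.29 in WTSHAM 1, 2 and 3 for the type I targets, and 1.39, 2.37 and 1.64 for the interferon gamma targets. WTSHAM 1 was thus above WTSHAM 3 in the median of the type I targets, whereas over the 10 GTPase genes WTSHAM 3 was above WTSHAM 1. Without WTSHAM 2 and WTSHAM 3 only WTSHAM 1 is left, with the median ratios of 2.97 for the type I targets and 1.39 for the interferon gamma targets. In the fit of 6 libraries, 28 of the type I targets and 1 of the interferon gamma targets were called, with 0.777% of all genes.

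**Figure D5:**
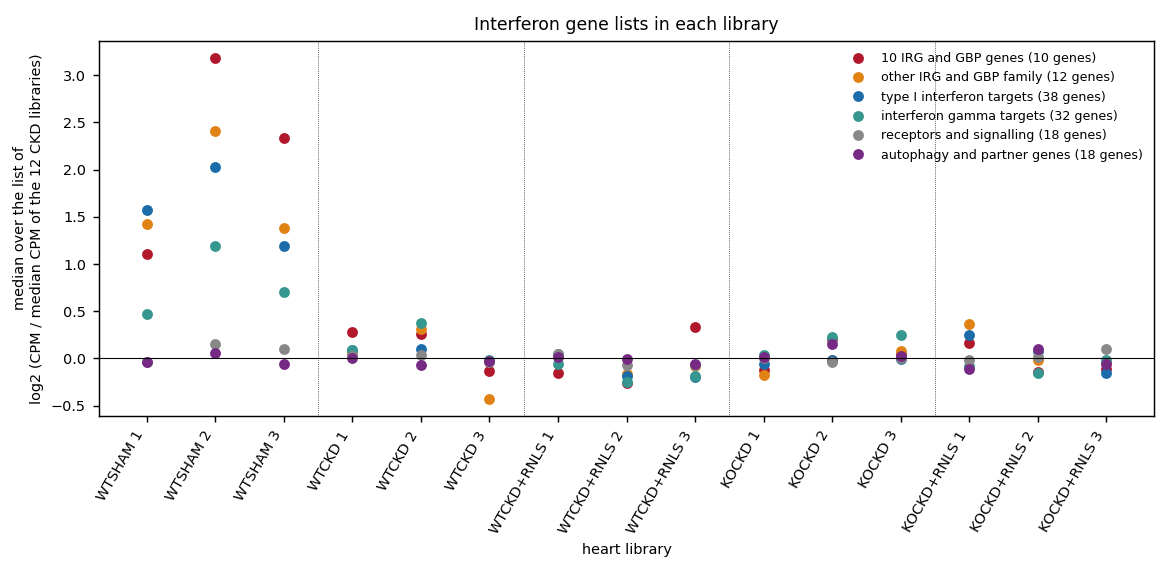
Median over each gene list of the log2 ratio to the median of the 12 CKD libraries, per library. The 10 GTPase genes (red) are at 1.11, 3.18 and 2.33 in WTSHAM 1, 2 and 3 and between -0.26 and 0.34 in the CKD libraries, and the type I targets (blue) are above them in WTSHAM 1 alone of the sham hearts.

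Of 18 genes whose products work with IRG and GBP proteins, 2 were lower and 1 was higher in WTCKD, with 2.30% of all genes called in either direction. Among the 18 were the autophagy conjugation factors and inflammasome genes. Rnf213, a ubiquitin ligase of bacterial surfaces, had a log2 fold change of -1.47 (SE 0.17, adjusted p = 0.000251, edgeR), and Trim21, an antibody receptor of the cytosol, one of -1.47 (SE 0.20, adjusted p = 0.0011). Gabarapl1, an autophagy factor of the Atg8 family, rose by 0.66 (SE 0.14, adjusted p = 0.0198, edgeR). The median over the list was 0.00, with 9 genes lower and 9 higher, and -0.01 over all genes. Over all these lists together, with the ligands, 56 of 114 genes were lower and 1 was higher, or 50% called, beside 2.30% of all genes. As earlier results of these data were known when the lists were chosen, nothing further is read from this share.

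In terms of cell type markers, the summed level of 10 macrophage markers, all above 0 in every library, was 573, 742 and 695 CPM in WTSHAM 1, 2 and 3, against 438 to 594 CPM in WTCKD. Fibroblast markers summed to 1293, 1759 and 1457 CPM in the same sham hearts and to 1033 to 1585 CPM in WTCKD. Of 10 T and NK cell markers only 1 passed the filter, and their sum was 2.08, 5.64 and 4.19 CPM in WTSHAM 1, 2 and 3 and 2.55 to 5.05 CPM in WTCKD. Endothelial markers summed to 1385, 1529 and 1398 CPM in WTSHAM 1, 2 and 3 and to 1384 to 1555 CPM in WTCKD. The macrophage, fibroblast, T and NK cell, endothelial and B cell sums all had the order of sham hearts of the IRG genes. Cardiomyocyte markers had the reverse order, at 96817, 86322 and 91146 CPM in WTSHAM 1, 2 and 3. The sums of mural, adipocyte, and monocyte and neutrophil markers had other orders. Red cell markers summed to 624, 462 and 68.5 CPM in WTSHAM 1, 2 and 3 and to 38.0 to 107 CPM in WTCKD. Their range was 217 to 527 CPM in WTCKD + RNLS, 51.1 to 375 CPM in KOCKD and 73.6 to 293 CPM in KOCKD + RNLS. Atrial markers summed to 148, 428 and 1146 CPM in WTSHAM 1, 2 and 3. They were at 1254, 2306 and 84.6 CPM in WTCKD and at 440, 116 and 2647 CPM in KOCKD. In WTCKD + RNLS they were at 121 to 474 CPM, and in KOCKD + RNLS at 128 to 286 CPM. The part of these markers in the level of the GTPase genes was not tested. In bulk tissue, fewer cells of a type and less RNA per cell cannot be told apart.

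Among the genes whose profile was most like the mean standardised log2 profile of the 10 genes over the 15 libraries were Parp9 (Pearson r = 0.96), Tap1 (0.95), Lgals3bp (0.95), Uba7 (0.95) and Gbp4 (0.94). These correlations are a description over libraries that fall into sham and CKD groups. Over the 12 CKD libraries alone, r was 0.62 for Parp9, 0.71 for Tap1, 0.26 for Lgals3bp, 0.08 for Uba7 and 0.39 for Gbp4. The likeness of Lgals3bp, Uba7 and Gbp4 thus rested on the sham libraries. Gbp4 also shares transcript windows with Gbp6, which is in the mean profile, and the part of shared reads in its likeness was not tested. Uba7, which activates the ubiquitin-like protein ISG15, was at 35.9, 110.2 and 62.3 CPM in WTSHAM and at 13.4 to 23.7 CPM in the CKD libraries.

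The effect of cardiac RNLS in wild-type mice was read from WTCKD + RNLS against WTCKD, which shares its WTCKD libraries with the comparison above. None of the 10 genes separated these groups, and 0 of 10 passed an adjusted p under 0.05 (edgeR), with 4.47% of all genes called. At an unadjusted p under 0.05 the number was also 0 of 10, with 20.2% of all genes. Groups that did not overlap made up 21.2% of all genes. The log2 fold changes ran from -0.46 (SE 0.23) for Gbp3 to 0.998 (SE 0.68) for Gbp10, with a median of -0.13 for the 10 genes and 0.01 for all. Gbp3 was at 16.4, 15.1 and 11.3 CPM in WTCKD + RNLS, overlapping the WTCKD values only through WTCKD 3.

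WTCKD + RNLS 3 differed from its group in several of the genes. Gbp10 was at 1.502, 0.928 and 9.49 CPM in WTCKD + RNLS 1, 2 and 3, and F830016B08Rik at 5.17, 4.09 and 23.05 CPM. Igtp was at 21.4, 19.1 and 38.1 CPM in the same order. In Gbp2 and Gbp3 replicate 3 was not the high one. Without this library the log2 fold changes of Gbp10 and F830016B08Rik were -0.72 and -0.38, and the median of the 10 genes was -0.33. In the full fit 7 of the 10 genes were lower in WTCKD + RNLS and 3 higher, with a median of -0.13. None of the 10 genes was called in any fit that left out 1 library.

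In the pathway lists, 2 of 114 genes (1.75%) were called in this comparison, both lower, with 4.47% of all genes called. They were Jak1, a kinase shared by both interferon receptors (log2 fold change -0.38, SE 0.08, adjusted p = 0.0161, edgeR), and Icam1, an adhesion molecule for leukocytes (-0.73, SE 0.17, adjusted p = 0.0196). Neither of the 2 belongs to the GTPase families. Endothelial markers summed to 1000.0 to 1104 CPM in WTCKD + RNLS, below the WTCKD range, and macrophage markers to 405 to 440 CPM. Their part in these values was not tested.

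In rnls-/- mice, KOCKD + RNLS against KOCKD showed the genes on both sides of 0. Again 0 of 10 passed the test, with 16.1% of all genes called, and 1 of 10 had an unadjusted p under 0.05, with 31.6% of all genes. The groups did not overlap in 5 of the 10 genes, 2 lower and 3 higher in KOCKD + RNLS, and in 40.6% of all genes. Irgm2 was at 29.98, 21.3 and 24.5 CPM in KOCKD + RNLS and at 33.9, 41.9 and 51.2 CPM in KOCKD, a log2 fold change of -0.75 (SE 0.41) without overlap. Gbp6 was at 44.3, 35.6 and 33.4 CPM against 50.2, 57.9 and 47.4 CPM, a log2 fold change of -0.46 (SE 0.33), also without overlap.

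Gbp3 took the opposite direction, at 34.0, 31.1 and 28.6 CPM in KOCKD + RNLS and 26.1, 17.4 and 19.3 CPM in KOCKD, a log2 fold change of 0.58 (SE 0.22). Gbp7, its neighbour on chromosome 3, was at 27.4, 23.7 and 25.6 CPM against 14.6, 22.1 and 23.4 CPM, a log2 fold change of 0.35 (SE 0.25). F830016B08Rik was at 17.4, 8.85 and 6.37 CPM against 2.54, 4.75 and 4.35 CPM, a log2 fold change of 1.497 (SE 1.06). In these 3 genes the groups did not overlap, with KOCKD + RNLS higher. Gbp2, which also lies near Gbp3, was at 28.9, 26.0 and 24.6 CPM against 21.8, 30.003 and 29.0 CPM and did not separate the groups. Of the other genes, Igtp was at -0.68 (SE 0.54), Gbp10 at -0.42 (SE 0.78), Iigp1 at -0.22 (SE 0.45) and Irgm1 at -0.08 (SE 0.32). The median of the 10 genes was -0.15. In the fit of only these 6 libraries, 5 of the 10 genes were called, 3 lower and 2 higher, with 25% of all genes tested there.

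Of the pathway genes, 12 of 114 (10.5%) were called in KOCKD + RNLS against KOCKD, 7 lower and 5 higher, with 16.1% of all genes called. Leaving out 1 library at a time gave between 2 (without KOCKD 2) and 10 pathway calls, so the genes below are given as single genes and nothing is read about their lists. The lower genes included 5 of the 32 interferon gamma targets, all of antigen presentation, with H2-Aa (log2 fold change -1.06, SE 0.31, adjusted p = 0.0313, edgeR) and H2-Eb1 (-1.09, SE 0.32, adjusted p = 0.0316), which encode class II chains, and B2m (-0.62, SE 0.20, adjusted p = 0.0471) and H2-D1 (-0.51, SE 0.17, adjusted p = 0.0489) of class I. The fifth was Psme2, a proteasome activator subunit. Of these, H2-Eb1 overlapped between the groups. Of the 38 type I targets 3 were higher and 0 lower, namely Xaf1, an apoptosis factor (1.06, SE 0.27, adjusted p = 0.0176, edgeR), Ifit2, which binds RNA (0.80, SE 0.25, adjusted p = 0.0385), and Oasl1 of the oligoadenylate synthetase-like family (1.26, SE 0.39, adjusted p = 0.0404).

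Jak2, the kinase of Ifngr2, was higher (0.38, SE 0.09, adjusted p = 0.0151, edgeR), and Ptpn2, a phosphatase that dampens Jak signalling, was lower (-0.84, SE 0.22, adjusted p = 0.0196). Of the partner genes, Rnf213 was higher (0.78, SE 0.17, adjusted p = 0.0071, edgeR) and Map1lc3a, which encodes LC3A, was lower (-0.35, SE 0.11, adjusted p = 0.0368). Neither the 10 genes nor the 12 other family genes had a call in this fit. Macrophage markers summed to 297 to 389 CPM in KOCKD + RNLS and 396 to 477 CPM in KOCKD, and their part in the lower antigen presentation genes was not tested.

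Between the genotypes, KOCKD against WTCKD, the 10 genes differed little relative to their spread. All 10 overlapped between the groups (19.3% of all genes did not), with log2 fold changes from -0.64 (SE 1.14) for F830016B08Rik to 0.28 (SE 0.53) for Igtp and a median of 0.01. Irgm1 was at 28.1, 34.2 and 31.3 CPM in KOCKD, nearly the range of WTCKD (29.1 to 33.2 CPM). No gene in the table was called (0 of 13021 with edgeR, 9 with DESeq2), while 1318 genes (10.1%) had an unadjusted p under 0.05. Of the 10 genes, 0 were among these. With SE between 0.22 and 1.14 on the log2 scale, differences of this size could not be told from the spread between hearts.

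Whether RNLS acted unequally in rnls-/- and wild-type hearts was fitted as an interaction. It was 1.03 (SE 0.32) for Gbp3, whose effect was -0.46 in wild-type and 0.58 in rnls-/- mice, and it lay between -1.42 (SE 1.04) for Gbp10 and 0.63 (SE 1.47) for F830016B08Rik in the other 9 genes. No gene was called (0 of 13021 with edgeR, 363 with DESeq2), and 2288 (17.6%) had an unadjusted p under 0.05. The median over the 10 genes was 0.07, and without WTCKD + RNLS 3 it was 0.30.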

How the data were processed

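Cardiac RNA of 15 mice was prepared by the authors with a stranded mRNA kit, sequenced as paired reads on 1 of 2 Illumina platforms named (which was used for a library is not stated), trimmed with Trimmomatic, mapped with HISAT2 and counted with HTSeq. The study's supplement gives mm9 as the genome, while the submitters' processing notes give GRCm39. The versions, the annotation and the strand and multi-mapping settings were not given in the sources used here. The deposited table holds raw counts of 17447 genes, of which 300 had no count. The deposited FPKM are the same counts scaled by the authors for library total and for 1 length per gene.

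R 4.3.3 with edgeR 4.0.16 was used (TMM, default filter with a minimum count of 10 and total of 15, quasi-likelihood F test, 5 groups in 1 fit, Benjamini-Hochberg over 13021 genes, two-sided). log2 fold changes are from this fit. DESeq2 1.42.0, RLE scaling, no filter, a replicate block, 6 libraries only and leaving out each library served as alternatives, and the code was tested on simulated data. Python 3.11.15 read the sequences. P-values measure only the spread between these hearts.

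The 10 genes and the lists of other genes were chosen with earlier results of these data known. Named were the 10 genes, up to 4 called genes with the smallest adjusted p per list and comparison, Ifng, Ifngr1, Ifngr2 and Irf1, and the genes most like the mean profile. Results of 1 item that this rule named are not reported here. Tgtp2, Irgq, 9930111J21Rik1, Il15, Ifi204, Ifi27, Dtx3l, Psme2 and Gm12250 were named after their values were seen.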

Additional observations from a re-analysis of the deposited data

Results flagged for a closer look

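In 6 of the genes named above, each WTCKD + RNLS library lay on one side of the WTCKD mean and each KOCKD + RNLS library on the opposite side of the KOCKD mean. Only the named genes were searched. The share of all genes with this pattern was not counted, so nothing is read from the number. Of all genes, 17.6% had an unadjusted p under 0.05 for the difference (edgeR). Gbp3 showed the pattern with an effect of RNLS of -0.46 in wild-type and 0.58 in rnls-/- mice, a difference of 1.03 (SE 0.32) on the log2 scale. The difference was 0.94 (SE 0.24) for Rnf213, 0.38 (SE 0.29) for Trim21, 0.51 (SE 0.11) for Jak1, 1.15 (SE 0.41) for Xaf1 and 0.91 (SE 0.36) for Ifit2, again higher in rnls-/- mice. The test of the difference over all genes (edgeR) called none of the 6 at an adjusted p under 0.05. With DESeq2, 1 of the 10 GTPase genes was called, beside 363 of all 13021 genes. No rule was set to search groups of 3 for single outlying libraries. WTCKD + RNLS 3 and the sham hearts were described above from their values, and each library was left out in turn.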

How the results depend on the processing

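With 3 hearts a group and sham hearts that differ among themselves, the size of each difference from WTSHAM is uncertain, and the counts do not separate close copies such as Gbp6 and Gbp10. The median of the 10 genes in WTCKD against WTSHAM stayed below 0 under each alternative run. The cause of the changes below was not tested.

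The main counts of genes called were 299 in WTCKD against WTSHAM, 582 in WTCKD + RNLS against WTCKD, 2095 in KOCKD + RNLS against KOCKD, 0 in KOCKD against WTCKD and 0 for the difference of the effects, with 57, 2, 12, 0 and 0 in the pathway lists. An unadjusted p under 0.05 with the fold change threshold the study used gave 1470, 1874, 2902, 732 and 1981. DESeq2 gave 584, 894, 2401, 9 and 363, and called 2 pathway genes for the difference and 4 in WTCKD + RNLS against WTCKD. Fits of only the libraries compared gave 99, 380, 3115 and 2 in the first 4 comparisons, with 32, 5 and 36 pathway genes in the first 3. KOCKD against WTCKD had 4 calls with RLE scaling and 5 without a filter. Without WTSHAM 2 and WTSHAM 3, chosen after seeing the data, the median of the 10 genes in WTCKD against WTSHAM was -0.88, pathway calls were 8 in WTCKD + RNLS against WTCKD and 21 in KOCKD + RNLS against KOCKD, and KOCKD against WTCKD had 1 call.

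Leaving out 1 library at a time gave 136 (without WTCKD 1) to 380 (without WTSHAM 1) calls in WTCKD against WTSHAM, 209 (without WTCKD 2) to 761 (without WTCKD + RNLS 2) in WTCKD + RNLS against WTCKD, and 862 (without KOCKD 2) to 1476 (without KOCKD 1) in KOCKD + RNLS against KOCKD. It gave 0 to 3 in KOCKD against WTCKD and 0 to 2 for the difference. Pathway calls ran from 42 to 63, 0 to 4 and 2 to 10 in the first 3 comparisons. The median of the 10 genes in WTCKD against WTSHAM ran from -2.65 (without WTSHAM 1) to -1.65 (without WTSHAM 2).

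Replicate numbers did not pair the samples: of 30 pairs of same-numbered libraries the correlations of deviations ran from -0.36 to 0.33, and 5 were over 0.1. A replicate block gave 253, 522, 1909, 1 and 0 calls, with 4 pathway genes in WTCKD + RNLS against WTCKD, a median of -2.17 for the 10 genes in WTCKD against WTSHAM, and 1 of the 10 called higher in KOCKD + RNLS against KOCKD.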

Other observations

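Dtx3l, a ubiquitin ligase that pairs with Parp9, was below the CKD libraries in WTSHAM 2 and WTSHAM 3 but not in WTSHAM 1, and was picked out after its values were seen. It was at 44.9, 12.6 and 9.05 CPM in WTSHAM 1, 2 and 3 and at 29.2 to 32.2 CPM in WTCKD, whereas Parp9 was at 43.5, 75.3 and 44.7 CPM in the same sham hearts and at 22.0 to 26.9 CPM in WTCKD.

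Gm12250, another IRG gene (Irgb10) picked out in the same way, shared the order of the sham hearts seen for Igtp, with 6.09, 35.3 and 10.2 CPM in WTSHAM 1, 2 and 3. In WTCKD + RNLS it was at 1.17, 0.928 and 6.43 CPM, the highest value again in replicate 3.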
